A study of Caenorhabditis elegans with 5 samples.

Results

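The genes described here are 6 genes transcribed in the early Caenorhabditis elegans embryo, chosen by name from 45461 gene identifiers: tbx-37 (Y47D3A.12), tbx-38 (C24H11.3), lsy-27 (F47H4.1), sdz-28 (R52.1), end-1 (F58E10.2) and end-3 (F58E10.5). All 6 were found in every table. RNA was sequenced in 5 libraries, with 1 library for each group. The first group had been fed bacteria with double-stranded RNA against gld-1 and was moved on day 2 of adulthood to plates without food for 48 h (gld-1 RNAi fasted, labelled day 4). The next had the same RNAi and was moved on day 2 to L4440 bacteria, which carry the empty vector, for 48 h (gld-1 RNAi fed, day 4). The remaining groups were gld-1 RNAi animals of day 3, control animals on L4440 of day 3, and young adults on L4440 of day 1. Each library pooled ca. 3000 animals of 2 independent experiments, so no spread between experiments can be seen. The labels name no strain and differ on whether RNAi began in the first larval stage or after day 1 of adulthood.

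The embryo of C. elegans starts on maternal RNA and protein laid down in the oocyte, and its own genes are switched on lineage by lineage over the early cleavages. tbx-37 and tbx-38 encode T-box factors that act redundantly in descendants of the anterior blastomere ABa, where they are needed for anterior pharynx. end-1 and end-3 encode GATA factors that specify the endoderm founder cell E, downstream of the maternal factor SKN-1. lsy-27 encodes a zinc finger protein needed for the left-right difference between the ASE taste neurons, and sdz-28 is named for being a zygotic transcript that depends on SKN-1. GLD-1 represses translation of many maternal mRNAs in the meiotic germ line, and without it germ cells that should become oocytes proliferate as a tumour.

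The files hold counts divided by a size factor for each pair of libraries, from which whole reads were recovered. Totals were between 13803289 and 27598482 reads. The young adult library stood apart in that ribosomal RNA made up 3.53% of its reads, against 25.7% to 28.1% in the other 4 libraries. The RNAi target itself stood at a level of 1592 in fasted, 3061 in fed and 1994 in day 3 gld-1 RNAi animals, against 20340 in the control and 17593 in the young adult library, which goes with the labels. A level here is the number of reads divided by the size factor of that library on 1 scale for all 5 libraries. Intervals in brackets are exact 95% intervals and cover counting error only. With 1 library per group, no comparison has a replicate check, and fewer embryos and less RNA per embryo cannot be told apart in whole animals.

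tbx-37 and tbx-38 were read mainly in the day 3 control library. tbx-37 had 2 reads in the gld-1 RNAi fasted, 5 in the gld-1 RNAi fed and 4 in the gld-1 RNAi library, against 108 in the control and 1 in the young adult library. tbx-38 had 1 read in the gld-1 RNAi fasted, 3 in the gld-1 RNAi fed and 3 in the gld-1 RNAi library, against 124 in the control and 2 in the young adult library. The control library was thus the high sample for both T-box genes, and the counting intervals of the other 4 libraries overlapped each other. On the common scale tbx-37 had a level of 3.07 [0.84 to 7.85] in the gld-1 RNAi and 94.3 [77.4 to 114] in the control library. The level of tbx-38 was 2.30 [0.47 to 6.72] in the gld-1 RNAi and 108 [90.1 to 129] in the control library. The 2 paralogues were about equally abundant where they could be counted, since tbx-37 took 46.6% [40 to 53.2] of their 232 joint reads in the control library. Elsewhere their joint reads numbered between 3 and 8, too few to place that share.

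sdz-28 shared the control peak at a higher level. It had 12 reads in the gld-1 RNAi fasted, 25 in the gld-1 RNAi fed and 29 in the gld-1 RNAi library, against 263 in the control and 4 in the young adult library. Its level was 19.2 [9.91 to 33.5] in the gld-1 RNAi fasted, 20.8 [13.4 to 30.7] in the gld-1 RNAi fed and 22.2 [14.9 to 31.9] in the gld-1 RNAi library. These 3 intervals overlapped. The control stood far above them at 230 [203 to 259], and the young adult library lowest at 4.42 [1.21 to 11.33], with an interval that overlapped that of the fasted library alone.

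lsy-27 was the most abundant of the 6 and was read in every library. It had 166 reads in the gld-1 RNAi fasted, 219 in the gld-1 RNAi fed and 327 in the gld-1 RNAi library, against 973 in the control and 164 in the young adult library. Its level was 265 [227 to 309] in the gld-1 RNAi fasted, 182 [159 to 208] in the gld-1 RNAi fed, 251 [224 to 280] in the gld-1 RNAi, 850 [797 to 905] in the control and 181 [155 to 211] in the young adult library. The control was again the high sample, but the other 4 libraries held well over 100 reads each. lsy-27 RNA was thus measured in young adults, in which tbx-37, tbx-38 and sdz-28 had at most 4 reads.

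The endoderm genes end-1 and end-3 did not share the control peak. end-1 had 0 reads in the gld-1 RNAi fasted, 2 in the gld-1 RNAi fed and 2 in the gld-1 RNAi library, against 1 in the control and 1 in the young adult library. The count of 0 in the gld-1 RNAi fasted library has an exact upper limit of 5.90 for the level, where 3 reads would give 4.80. end-3 had 4 reads in the gld-1 RNAi fasted, 9 in the gld-1 RNAi fed and 10 in the gld-1 RNAi library, against 7 in the control and 3 in the young adult library. No high library stood out for either GATA gene, and their intervals overlapped between all 5 libraries. A difference in end-1 was not detectable at this depth.

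**Figure D1:**
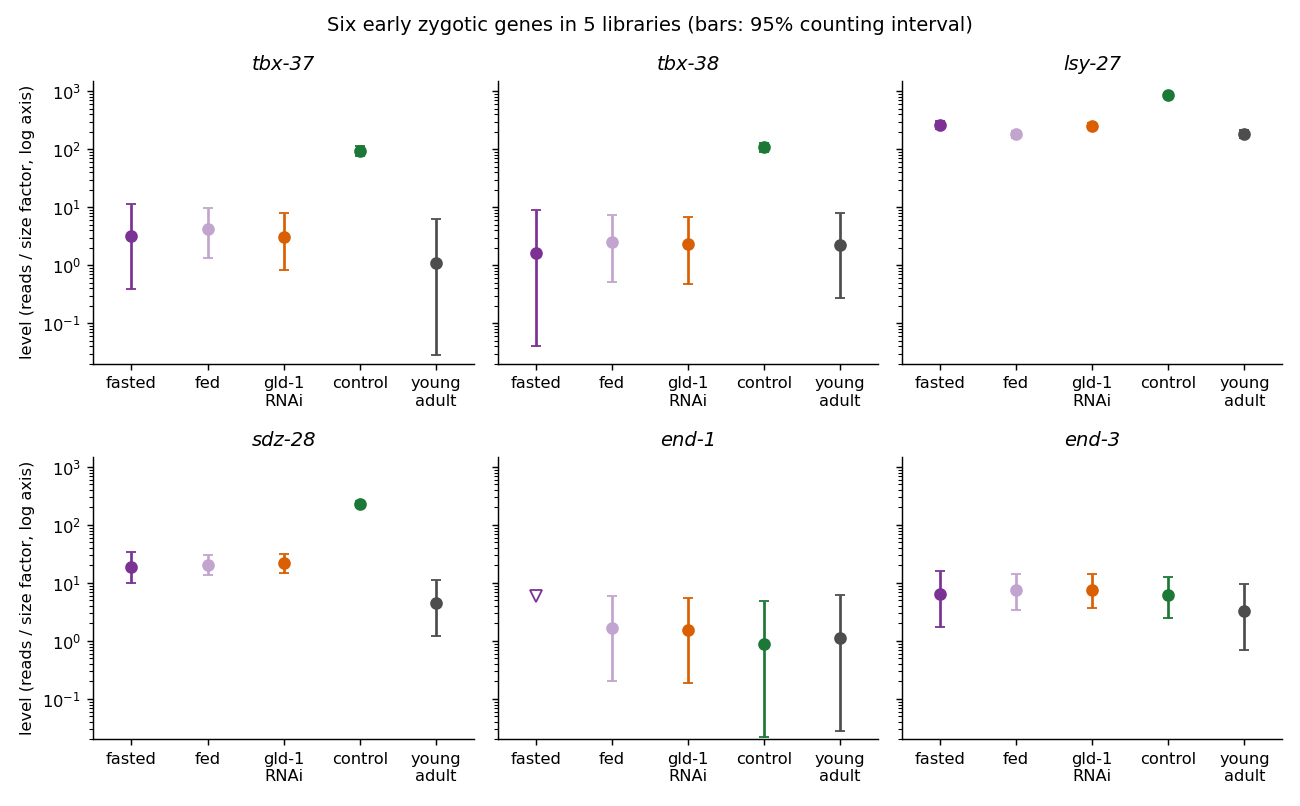
Level of each gene (reads over the size factor of the library, log axis) in fasted, fed and day 3 gld-1 RNAi, control and young adult libraries, with 1 point per library and bars for the 95% counting interval; the open triangle is the upper bound for a count of 0. The control point stands above the others for tbx-37, tbx-38, lsy-27 and sdz-28, and does not for end-1 and end-3.

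Levels per kilobase of exon allow the genes to be set beside each other. In the control library the order was lsy-27 at 810 [759 to 862] reads per kilobase, sdz-28 at 190 [168 to 214], tbx-38 at 103 [85.6 to 123], tbx-37 at 92.1 [75.5 to 111], end-3 at 7.07 [2.84 to 14.6] and end-1 at 1.17 [0.03 to 6.50]. The neighbours tbx-38 and tbx-37 did not differ beyond counting error, and neither did end-3 and end-1. In the gld-1 RNAi library the order was lsy-27 at 239 [214 to 266], sdz-28 at 18.4 [12.3 to 26.4], end-3 at 8.87 [4.25 to 16.3], tbx-37 at 2.99 [0.82 to 7.66], tbx-38 at 2.19 [0.45 to 6.39] and end-1 at 2.05 [0.25 to 7.40]. There the intervals of the T-box genes overlapped those of the GATA genes. Among 19271 protein-coding genes, tbx-37 was above 26.1% in the gld-1 RNAi and above 61.5% in the control library by level per kilobase.

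The mixture of the 6 genes also differed. Of their joint 375 reads in the gld-1 RNAi library, lsy-27 made up 87.2% [83.4 to 90.4], whereas of 1476 reads in the control it made up 65.9% [63.4 to 68.3]. tbx-37 and tbx-38 made up 1.07% [0.29 to 2.71] and 0.80% [0.17 to 2.32] in the gld-1 RNAi library, against 7.32% [6.04 to 8.77] and 8.40% [7.04 to 9.93] in the control. sdz-28 made up 7.73% [5.24 to 10.9] in the gld-1 RNAi and 17.8% [15.9 to 19.9] in the control library. These shares do not depend on how the libraries are scaled.

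The gld-1 RNAi and control libraries of day 3 set RNAi against gld-1 beside the empty vector in whole animals of the same age. A gene was counted as lower or higher when both libraries together held at least 10 reads, the ratio was at least 2-fold and its counting interval did not hold 0. By this count 4 of the 6 genes were lower under gld-1 RNAi (tbx-37, tbx-38, lsy-27 and sdz-28) and 0 were higher, and 1, end-3, was neither. Of all 14761 genes with enough reads, 8.73% were lower and 15.6% were higher. tbx-37 and tbx-38 reached the minimum of 10 reads through the control library alone, so they could only point this way. end-1 did not reach it. Summed over the 6 genes the log2 ratio was -2.11 [-2.28 to -1.95], a value set mainly by lsy-27.

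In the normalized reads of that pair, tbx-38 stood at 2.86 in the gld-1 RNAi and 130 in the control library, a log2 ratio of -5.50 [-7.80 to -3.92]. None of the 14761 genes had a lower ratio, with counts of 0 set to 3 reads. tbx-38 itself had 3 reads in the gld-1 RNAi library. A gene at 0 reads there could thus rank below it only with more than 124 control reads. This rank is therefore set in part by the floor. tbx-37 stood at 3.82 in the gld-1 RNAi and 113.2 in the control library, a log2 ratio of -4.89 [-6.79 to -3.49]. Both T-box ratios lay below that of the RNAi target gld-1, -3.30 [-3.36 to -3.24], with no overlap of the counting intervals. sdz-28 stood at 27.7 in the gld-1 RNAi and 276 in the control library, a log2 ratio of -3.32 [-3.92 to -2.76]. lsy-27 differed less, at 312 in the gld-1 RNAi and 1019 in the control library, a log2 ratio of -1.71 [-1.89 to -1.53]. Its interval did not overlap that of sdz-28. end-3 stood at 9.54 in the gld-1 RNAi and 7.33 in the control library, and its log2 ratio of 0.38 had an interval, -1.16 to 2.01, that holds no change as well as 2-fold in either direction. In the authors' deposited table none of the 6 genes passed an adjusted p of 0.1 from DESeq, while 47 genes did, and the lowest adjusted p of the 6 was 0.111, for tbx-38.

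**Figure D2:**
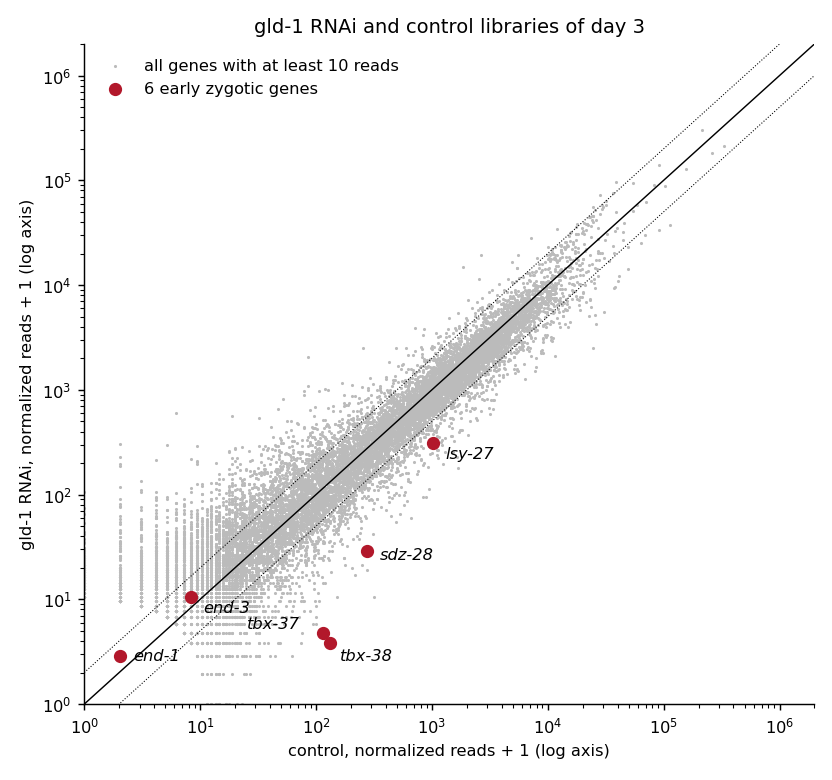
Normalized reads plus 1 of the 14761 genes with at least 10 reads (grey) and of the 6 early zygotic genes (red) in the gld-1 RNAi library (vertical, log axis) and the control library (horizontal, log axis); the solid line marks equal values and the dotted lines 2-fold. tbx-37 and tbx-38 lie at the lower edge of the cloud, sdz-28 and lsy-27 under the 2-fold line, and end-1 and end-3 near equality.

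The exons of 3 of the 6 genes touch a gene on the opposite strand in the Ensembl annotation, and no label states whether the libraries keep strand. tbx-38 shares 29 bases with srd-74, which had 3 reads in the gld-1 RNAi and 2 in the control library. lsy-27 shares 59 bases with skr-5, which had 40 reads in the gld-1 RNAi and 43 in the control library. end-3 shares 3 bases with srh-308, which had 1 read in the gld-1 RNAi and 0 in the control library. Reads in the shared bases cannot be assigned to a strand. In the fasted and fed gld-1 RNAi and the young adult libraries srd-74 had 5, 9 and 2 reads, at or above the 1, 3 and 2 reads of tbx-38, and the part of the shared bases in these low counts was not tested.

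Other genes that embryos transcribe early were set beside these 6 as lists. Of the SKN-1-dependent zygotic (sdz) genes other than sdz-28, 25 had enough reads, of which 16 were lower and 1 was higher under gld-1 RNAi, with a median log2 ratio of -1.89, against 0.01 for all genes tested. Many of these pass the read minimum through the control library. sdz-38 stood at 0.95 normalized reads in the gld-1 RNAi and 13.6 in the control library, from 1 and 13 reads (log2 ratio -3.84 [-9.24 to -1.10]). sdz-29 stood at 8.59 in the gld-1 RNAi and 77.5 in the control library, a log2 ratio of -3.17 [-4.36 to -2.17]. The exception was sdz-35 (ZC239.12), with 110 reads in the gld-1 RNAi and 0 in the control library, at least 33.4-fold higher with the control set to the floor of 3 reads. sdz-35 also had 46 reads in the gld-1 RNAi fasted, 77 in the gld-1 RNAi fed and 0 in the young adult library, so it was read in the RNAi libraries and in neither library on L4440 throughout.

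Of 20 further early somatic genes, 6 were lower and 3 were higher under gld-1 RNAi, where 8.73% of all genes were lower and 15.6% higher. The count of higher genes is near that share. pes-10, named for its patterned early embryonic expression, was the lowest, at 13.4 normalized reads in the gld-1 RNAi and 118 in the control library (log2 ratio -3.15 [-4.06 to -2.34]). lag-2, a Delta-type Notch ligand, stood at 21 in the gld-1 RNAi and 81.7 in the control library (log2 ratio -1.96 [-2.71 to -1.26]). The higher ones were the NeuroD-type factor cnd-1 (log2 ratio 1.55 [0.44 to 2.82]), the even-skipped homologue vab-7 (1.503 [0.38 to 2.77]) and the forkhead factor unc-130 (1.45 [0.66 to 2.31]). cnd-1 (29 and 9 reads) and vab-7 (28 and 9) passed the read minimum only with the gld-1 RNAi library. In the endomesoderm list, 6 genes besides the T-box pair and the GATA pair had enough reads. hnd-1, a Hand-type factor, was lower (log2 ratio -1.19 [-1.94 to -0.48]), and ceh-51, a homeobox factor of the MS mesoderm lineage, was higher, with 42 reads in the gld-1 RNAi and 9 in the control library (log2 ratio 2.09 [1.03 to 3.31]). The median of these 6 was -0.09 and turned to 0.04 when scaled to equal totals and to 0.05 when scaled to equal upper quartiles. The MED factors upstream of end-1 and end-3 could not be judged, since med-1 had 0 reads and med-2 had 1 read over all 5 libraries, and reads of these near-identical copies may be lost or split.

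Maternal genes differed less than tbx-37, tbx-38 and sdz-28, but some differed as much as lsy-27 (log2 ratio -1.71). The T-box pair had reached the read minimum through the control library alone. The 20 further early somatic genes had a median log2 ratio of -0.50, near that of the maternal regulators. Of 29 maternal regulators of the early embryo, 9 were lower and 0 higher (median log2 ratio -0.60). The CCCH finger genes pos-1 (-1.94 [-1.98 to -1.90]), mex-6 (-1.72 [-1.77 to -1.67]) and oma-2 (-1.70 [-1.75 to -1.66]) were the lowest. skn-1 itself was read 6082 times in the gld-1 RNAi and 5626 times in the control library. These are reads before scaling, where the size factor was 1.30 for the gld-1 RNAi and 1.14 for the control library. Of 25 oocyte and eggshell genes, 19 were lower and 1 was higher (median -1.45), with the summed level of the list at 172964 in the gld-1 RNAi and 497025 in the control library. The 1 higher gene was spe-41 (2.19), a sperm channel that stands in both this list and the sperm list. RNA of the oocyte list was thus higher in the control library as well. The lists of neurons (9 of 23 higher, 0 lower, median 0.97) and of sperm (5 of 7 higher, 0 lower, median 2.41) went the other way. These 7 were the genes with enough reads among 38 sperm genes. Some, such as spe-9 (33 and 5 reads) and spe-11 (17 and 2), reached the minimum through the gld-1 RNAi library alone. Such genes could hardly come out lower. Intestine genes (4 of 15 lower, 0 higher, median -0.73) differed in the same direction as the 4 of the 6 genes that were lower. Body wall muscle genes differed little (1 of 19 higher, 0 lower, median 0.20). The part of these in the values of the 6 genes was not tested.

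**Figure D3:**
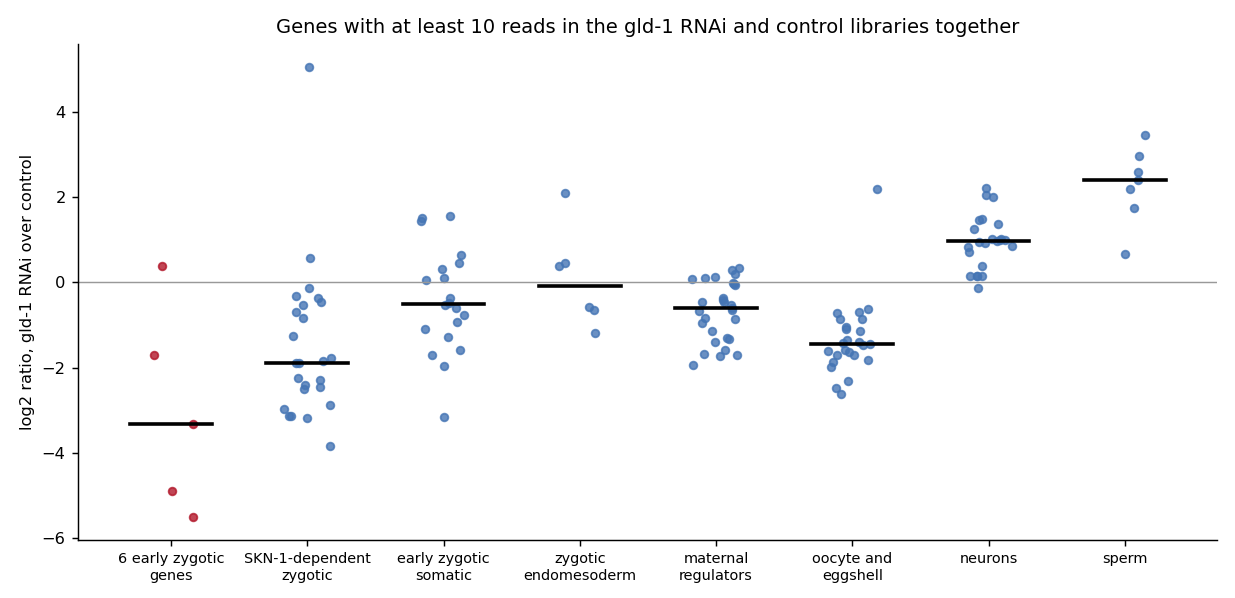
Log2 ratio of gld-1 RNAi over control for genes with at least 10 reads in the pair, by list: the 6 early zygotic genes (red, 5 of them with enough reads) and other lists without them (blue), with black bars for the medians; genes at 0 reads in 1 library are drawn at the bound set by 3 reads. The red median, -3.32, lies below that of the SKN-1-dependent list, -1.89, and of the oocyte and eggshell list, -1.45. Of the 5 genes behind the red median, tbx-37 and tbx-38 reached 10 reads through the control library alone. They could only come out lower, so the order of the medians depends in part on the read minimum.

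The control of day 3 was next set beside young adults of day 1, both on L4440 bacteria, so that age alone differs by label. The libraries themselves also differed in ribosomal RNA, with 28.1% of the reads in the control and 3.53% in the young adult library. Of the 6 genes, 4 were higher in the control and 0 were lower, where 14.9% of 15395 genes were higher and 31.9% lower. tbx-37, tbx-38 and sdz-28 reached the minimum of 10 reads through the control library alone, so they could only come out higher. The level of tbx-37 was 94.3 in the control and 1.11 in the young adult library, a log2 ratio of 6.41 [3.91 to 11.73] from 108 reads and 1 read. For tbx-38 the levels were 108 in the control and 2.21 in the young adult library, a log2 ratio of 5.61 [3.73 to 8.68]. For sdz-28 the log2 ratio was 5.70 [4.33 to 7.59], and for lsy-27 it was 2.23 [1.99 to 2.48]. end-3 had a log2 ratio of 0.88 [-1.25 to 3.47]. As against the gld-1 RNAi library, lsy-27 lay closest to equality of these 4, and both comparisons use the same control library. The intervals of the other 3 overlapped each other against young adults, so their order there was not resolved. In the same pair, 17 of 24 other sdz genes were higher and 3 were lower (median 2.65). pes-10 stood at levels of 98.7 in the control and 2.21 in the young adult library. Many of these sdz genes, and pes-10, likewise reached the minimum of 10 reads through the control library alone. Such genes could hardly come out lower, so the count and the median depend in part on the read minimum. Of the oocyte and eggshell genes 20 of 25 were higher and 1 was lower (median 1.36). The summed level of this list was 172964 in the gld-1 RNAi library and 174136 in the young adult library, and tbx-37 and tbx-38 were near 0 in both. Sperm genes had a summed level of 102 in the control, with 28 of 38 at 0, and 20096 in the young adult library, with 0 of 38 at 0. Body wall muscle genes had a summed level of 51127 in the control and 279818 in the young adult library (17 of 19 lower, 0 higher, median -2.84). Of the neuron genes 10 of 23 were lower and 0 higher (median -0.94), and of the intestine genes 7 of 15 were lower and 1 higher (median -0.84). The part of these lists in the values of the 6 genes was not tested.

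Between the gld-1 RNAi library of day 3 and the young adult library of day 1, age and RNAi differ together. Of the 6 genes 3 had enough reads, and of these 1 was higher and 0 were lower. Of all 15880 genes with enough reads, 18.8% were higher and 27.4% lower. A count of 1 among 3 genes cannot be set apart from these shares. The gene counted was sdz-28, at 25.1 normalized reads in the gld-1 RNAi and 4.62 in the young adult library (log2 ratio 2.44 [0.93 to 4.41]). sdz-28, with 29 and 4 reads, and end-3 reached the minimum of 10 reads through the gld-1 RNAi library alone. Both could thus hardly come out lower. lsy-27 stood at 283 in the gld-1 RNAi and 189 in the young adult library (log2 ratio 0.58 [0.31 to 0.86]), under 2-fold, and 0.16 when scaled to equal totals, a scaling that moved the median of all genes by -0.42. tbx-37 had 4 reads in the gld-1 RNAi library and 1 in the young adult library, and tbx-38 had 3 and 2 in the same order, which leaves both under the minimum of 10 reads. end-3 had 10 reads in the gld-1 RNAi and 3 in the young adult library, with an interval from -0.64 to 3.82. Of the other sdz genes, 7 of 16 were higher and 2 were lower. Some of these likewise reached the minimum through the gld-1 RNAi library alone. ceh-51 had 42 reads in the gld-1 RNAi library and 1 in the young adult library (log2 ratio 4.98 [2.42 to 10.31]), and cnd-1 had 29 and 0 in the same order. With so few young adult reads, ceh-51 and cnd-1 could hardly come out lower either. Both belong to lists of which 2 of 6 (endomesoderm) and 11 of 18 (early somatic) were higher and 2 and 3 were lower, with medians of -0.17 and 1.53. A difference in the T-box pair was not detectable at this depth.

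Among the 3 gld-1 RNAi libraries 3 of the 6 genes, lsy-27, sdz-28 and end-3, had enough reads, and 0 of these were counted as higher or lower in any of the 3 comparisons. The share of all genes counted was 1.91% higher and 5.81% lower in gld-1 RNAi fasted over fed, 1.13% higher and 5.73% lower in gld-1 RNAi fasted over gld-1 RNAi of day 3, and 1.25% higher and 1.19% lower in gld-1 RNAi fed over gld-1 RNAi of day 3. With shares this low, a count of 0 among 3 genes is near the background. These comparisons share libraries, so their values are given side by side only.

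lsy-27 was the gene with reads enough to be measured closely. It stood at 232 normalized reads in the gld-1 RNAi fasted and 156 in the gld-1 RNAi fed library, a log2 ratio of 0.57 [0.27 to 0.87]. It stood at 226 in the gld-1 RNAi fed and 317 in day 3 gld-1 RNAi animals, a log2 ratio of -0.49 [-0.74 to -0.23]. In the gld-1 RNAi fasted library it stood at 238, against 228 in day 3 animals, a log2 ratio of 0.06 [-0.22 to 0.33]. The gld-1 RNAi fed library was thus the low one of the 3, beyond counting error. The median of the oocyte and eggshell list was 0.64 for fasted over fed (5 of 25 higher, 0 lower), -0.35 for fed over gld-1 RNAi and 0.30 for fasted over gld-1 RNAi. The part of oocyte RNA in the lsy-27 values was not tested.

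sdz-28 had log2 ratios of -0.09 [-1.22 to 0.96] for fasted over fed, -0.24 [-1.34 to 0.78] for fasted over gld-1 RNAi and -0.12 [-0.95 to 0.70] for fed over gld-1 RNAi. The first interval leaves room for nearly 2-fold higher and the first and second for over 2-fold lower. end-3 had intervals from -2.35 to 1.64, from -2.41 to 1.51 and from -1.53 to 1.40 in the same order, which leave room for more. tbx-37 and tbx-38 together had 3 reads in the gld-1 RNAi fasted, 8 in the gld-1 RNAi fed and 7 in the gld-1 RNAi library. The T-box pair was thus near 0 in both fasted and fed gld-1 RNAi animals, and a difference between fasted and fed animals was not detectable at this depth. Of the other early somatic genes, ref-1 (log2 ratio 1.15 [0.66 to 1.65]) and tbx-9 (1.10 [0.76 to 1.44]) were higher in the gld-1 RNAi fasted than in the fed library, and 0 of 19 were lower. Of 15 other sdz genes 0 were higher and 0 lower.

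**Figure D4:**
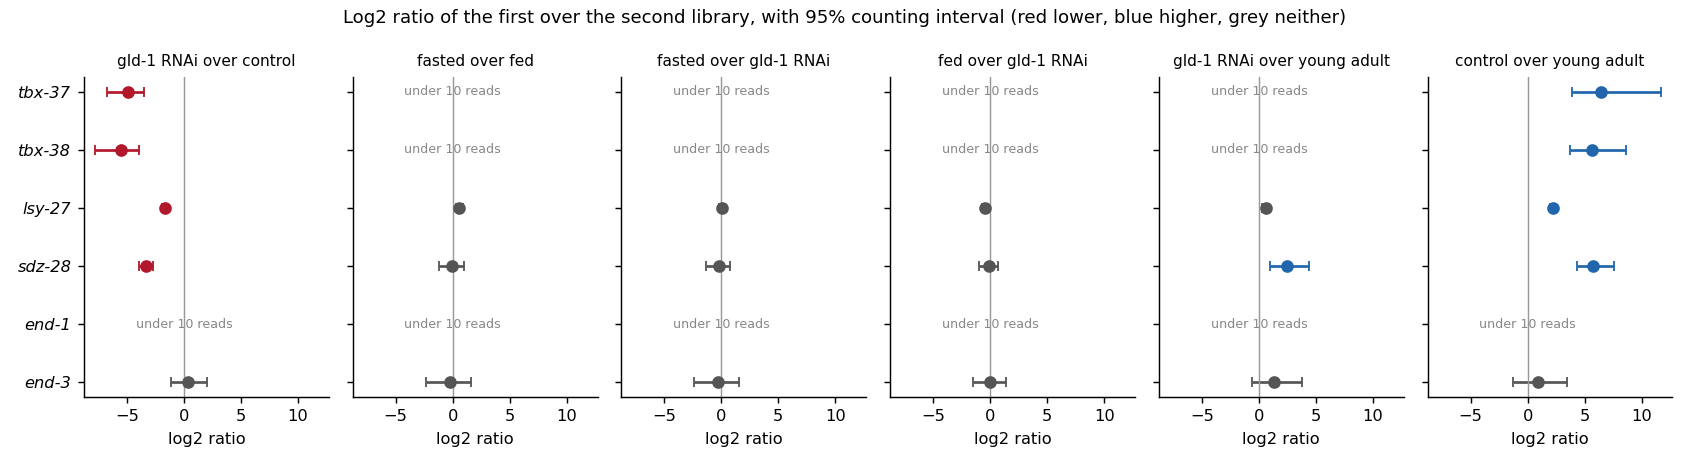
Log2 ratio of the first over the second library named above each panel, with bars for the 95% counting interval; red marks lower, blue marks higher, grey marks neither, and genes with under 10 reads in the pair have no point. The coloured points are in gld-1 RNAi over control, in control over young adult and, for sdz-28, in gld-1 RNAi over young adult. The grey lsy-27 points of fasted over fed, fed over gld-1 RNAi and gld-1 RNAi over young adult have intervals off 0 but are under 2-fold.

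The genes most alike in pattern were sought among 7897 named protein-coding genes with at least 50 reads in all, by the root mean square distance of their centred log2 level from that of the summed 6 genes over the 5 libraries. lsy-27 makes up most of that sum, and its own distance was 0.18, against 0.99 for tbx-37, 1.14 for tbx-38 and 0.87 for sdz-28. The closest was tbx-33 (distance 0.19), with 68 reads in the gld-1 RNAi fasted, 81 in the gld-1 RNAi fed and 125 in the gld-1 RNAi library, against 363 in the control and 54 in the young adult library. tbx-9 followed (0.29), and both are T-box genes. The next were the forkhead gene fkh-4 (0.32), the choline transporter-like gene chtl-1 (0.32), the eggshell proteoglycan gene cpg-2 (0.33), the six-family homeobox gene ceh-32 (0.33), the cell corpse gene ced-8 (0.33) and btb-6 (0.34). cpg-2 is transcribed in the mother's germ line, and the others include genes of embryonic patterning.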

How the data were processed

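RNA of 5 libraries of whole C. elegans was measured. The submitters' processing notes name TopHat, HTSeq and DESeq without versions. No label states the build, and coordinates are left out. The authors deposited 5 tables of 1 pair of libraries each. Per the file headers, these hold a normalized signal (counts over a size factor) for both libraries, their ratio, its log2 and p-values. Columns were assigned by the order of names of each table. Whole reads were recovered from the step of the values: 100% were whole numbers to within 0.1 read. Libraries found in several tables gave equal reads in each (0 genes differed). The gld-1 RNAi library stands in 4 of the 5 tables.

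Names, biotypes, overlaps and exon lengths came from the Ensembl annotation of WBcel235 and RefSeq, which matched 44936 identifiers. The other 525 held at most 0.368% of the reads of a library. Protein and promoter sequences were not used here. Log2 ratios use the size factors of the pair, and for control over young adult, which no table holds, median-of-ratios factors over 5 libraries. Intervals are exact Clopper-Pearson (ratios, shares) or exact Poisson (levels), computed with Python 3.11.15 and scipy 1.17.1, and were tested on simulated data. PCR duplicates are not told apart, so intervals cover counting error only. A gene at 0 reads was set to a floor of 3 reads, and no ratio is given where both libraries had 3 or fewer. With 1 library per group no spread between replicates could be estimated, and no count model was fitted here. The authors' adjusted p-values from DESeq rest on the same single libraries.

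The 6 genes and the lists were chosen with earlier results of these data known. Named genes are the 6, gld-1, of each list up to 3 from either end among those past 2-fold in gld-1 RNAi over control, and the 8 closest in pattern. skn-1, ref-1, tbx-9 (fasted over fed), and the values of ceh-51, cnd-1 and pes-10 against young adults were added after their values were seen.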

Additional observations from a re-analysis of the deposited data

How the results depend on the processing

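No paired analysis was possible because each group has 1 library. Scaling to equal totals, equal upper quartiles or equal totals without rRNA left the counts of the 6 genes as they were in all 6 comparisons. Under equal totals the median of all genes moved by 0.13 for gld-1 RNAi over control, -0.42 for gld-1 RNAi over young adult and -0.50 for control over young adult. Summed over the 6 genes, the log2 ratio was -2.11 for gld-1 RNAi over control, 0.46 for fasted over fed, 0.02 for fasted over gld-1 RNAi, -0.42 for fed over gld-1 RNAi, 0.68 for gld-1 RNAi over young adult and 2.74 for control over young adult. This sum rests on lsy-27, which holds most of the reads. Without lsy-27 it was -3.52, -0.24, -0.30, -0.032, 1.71 and 5.17 in the same order, so that the sign turned for fasted over fed and for fasted over gld-1 RNAi. Without sdz-28 it was -1.94 for gld-1 RNAi over control and 2.49 for control over young adult. The median of the member ratios, over each gene with a ratio and so with tbx-37 also where it was under 10 reads, was -3.32 for gld-1 RNAi over control, -0.14 for fasted over fed, -0.099 for fasted over gld-1 RNAi, -0.090 for fed over gld-1 RNAi, 1.45 for gld-1 RNAi over young adult and 5.61 for control over young adult. Under equal totals the sum was 0.26 for gld-1 RNAi over young adult and 2.24 for control over young adult. The 1 gene higher in gld-1 RNAi over young adult became 0 with a minimum of 100 reads, and 0 when the counting interval had to lie wholly past 2-fold, since sdz-28 had 29 and 4 reads. A pseudocount of 10 brought tbx-37 and tbx-38 to log2 ratios of -3.16 and -3.44 for gld-1 RNAi over control and to 3.23 and 3.28 for control over young adult, where sdz-28 came to 4.06 and was then the highest of the 6. Under equal totals lsy-27 came to 0.16 for gld-1 RNAi over young adult and 1.73 for control over young adult. Size factors without the young adult library, added after seeing the data, kept all levels within their counting intervals. Depth limits end-1, end-3 and, outside the control library, tbx-37 and tbx-38.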

Other observations

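Genes were sought whose level in the control library was at least 10-fold above that in each of the other 4 libraries, a condition modelled on the values of tbx-37 and tbx-38, so that the place of the 6 genes among them is no result. Of 9418 genes with at least 50 control reads, 7 met this, tbx-37, tbx-38 and sdz-28 among them. The other 4 were the cuticle collagen gene col-165 (304 control reads, a level 33.2-fold above the next library), dct-13 (72 reads, 15.1-fold), Y38E10A.3 (50 reads, 11.4-fold) and Y116A8C.19 (57 reads, 10.8-fold). For tbx-38 the control level was 43.5-fold above the next library, for tbx-37 22.7-fold and for sdz-28 10.3-fold.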
